A study of Mus musculus with 25 samples.

Results

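Iron uptake, storage and export genes were described as a group of 10 genes (Tfrc, Fth1, Ftl1, Slc40a1, Slc11a2, Hamp, Ncoa4, Ireb2, Aco1 and Slc39a14), chosen by symbol out of 35969 genes with a transcript in the table. Their mRNA was measured in left ventricular tissue of male mice in 5 groups of 5, namely 2 of WT and 2 of GPx4+/- mice on either CNTL or HFHS diet, and a further group, WT HFHS + Carnosine. GPx4+/- animals lack a working copy of Gpx4 on 1 chromosome throughout the body, and so have less glutathione peroxidase 4, the enzyme that reduces lipid hydroperoxides. They were compared with WT littermates of a line backcrossed to C57BL6/J. At 8 to 10 weeks of age all mice started 16 weeks on either a low-fat control chow (CNTL, with 6% of energy from fat) or a high fat high sucrose diet (HFHS, with lard giving 35.5%). The carnosine group, of WT mice only, drank the dipeptide carnosine at 80 mM from week 7 of the HFHS diet. Carnosine in GPx4+/- mice was not analysed here. All 10 genes had at least 1 scaled TPM on average and were tested.

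Most cells take up iron as transferrin bound to the transferrin receptor, encoded by Tfrc. The iron leaves the endosome through the transporter Slc11a2 (DMT1), while Slc39a14 (ZIP14) imports iron that is not bound to transferrin. Ferritin, a shell of heavy (Fth1) and light (Ftl1) chains, stores iron, and Ncoa4 carries ferritin to the lysosome for its release. Ferroportin (Slc40a1) is the exporter, and the peptide hormone hepcidin (Hamp), made mainly in liver, has it degraded. The iron regulatory proteins IRP1 (Aco1) and IRP2 (Ireb2) bind a hairpin in target mRNAs, the iron-responsive element, when iron is scarce. Binding in the 3′ UTR protects Tfrc mRNA from decay, whereas binding in the 5′ UTR blocks translation of ferritin and ferroportin and need not move the amount of mRNA.

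The elements are shown because the mRNA of Tfrc, the member that rose with diet, holds several copies where the ferritin mRNAs hold 1. GENCODE M21 transcripts were searched for a C, 5 bases, the loop CAGTGN and 5 bases pairing with the former 5. The loop stands in capitals with 5 further bases on the outer sides, written 5′ to 3′ in the transcript's direction. In Tfrc (transcript ENSMUST00000023486, plus strand, GRCm38) there were 4 matches, all in the 3′ UTR in exon 19 of 19, at chr16:32631220-32631246, chr16:32631599-32631625, chr16:32631664-32631690 and chr16:32631711-32631737. Fth1 had 1 in the 5′ UTR (chr19:9982733-9982759, plus strand), as did Ftl1 (chr7:45459780-45459806, minus strand) and Slc40a1 (chr1:45925466-45925492, minus strand), in each case in exon 1 of the gene's most abundant transcript.
Tfrc site 1: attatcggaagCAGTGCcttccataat
Tfrc site 2: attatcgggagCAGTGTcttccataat
Tfrc site 3: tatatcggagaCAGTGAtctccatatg
Tfrc site 4: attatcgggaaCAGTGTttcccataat
Fth1 site: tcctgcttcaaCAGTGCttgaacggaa
Ftl1 site: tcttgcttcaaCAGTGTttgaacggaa
Slc40a1 site: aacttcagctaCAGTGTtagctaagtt
This pattern occurred in 565 of 58797 protein-coding transcripts (0.961%), and in 294 of 21901 genes (1.34%), among them 4 of the 10 members. No match in the other members, Slc11a2 included, says only that these letters are not in their annotated transcripts. An element with another loop would be missed, also in Tfrc, so 4 counts matches and need not be the full number of elements.

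The authors deposited TPM, a share of each library corrected for transcript length that keeps no read depth, so no counting error can be given. TPM were summed per gene and divided by a median-ratio factor per library (0.865 to 1.16, with 31.3% to 48.7% of TPM from mitochondrial transcripts), and are called scaled TPM. Fold changes are differences of log2(scaled TPM + 0.5), a scale that makes changes of low genes look smaller, and were tested with limma over 11983 genes with Benjamini-Hochberg adjustment. Gpx4 mRNA was lower in every GPx4+/- library (250.3 to 382) than in every WT library (590.0 to 777). Ventricular markers were high in all 25 libraries (summed scaled TPM of 36381 to 45213). However, 6 stood highest in atrial marker mRNA (summed scaled TPM of 276 to 7339) and 3 held raised liver mRNA, which bears on Hamp. In bulk tissue, fewer cells of a type and less RNA per cell cannot be told apart.

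Tfrc mRNA rose with the HFHS diet in GPx4+/- mice and over both genotypes, and in WT mice alone the difference did not pass the test. In GPx4+/- CNTL hearts the scaled TPM of Tfrc was 3.27, 3.77, 3.49, 3.58 and 6.28, against 19.8, 11.2, 15.3, 11.3 and 16.8 in GPx4+/- HFHS. The groups did not overlap (nor did they in 4.47% of all genes), and the means of 4.08 ± 1.25 (SD, n = 5) and 14.9 ± 3.70 (SD, n = 5) differed 3.65-fold, with a log2 fold change of 1.75 (SE 0.279, adjusted p = 0.00243 from limma). By unadjusted p this was rank 22 of the 11983 genes, of which 3.34% were called in this comparison. In WT CNTL hearts the values were 6.55, 7.00, 4.29, 7.21 and 3.49, and in WT HFHS 10.1, 7.20, 16.9, 18.8 and 5.81. The WT groups overlapped, since 2 of the HFHS mice (7.20 and 5.81) lay within the CNTL range, and the means of 5.71 ± 1.70 (SD, n = 5) and 11.8 ± 5.82 (SD, n = 5) gave a log2 fold change of 0.89 (SE 0.279) that did not pass (adjusted p = 0.114 from limma). Here 1.19% of genes were called.

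Over both genotypes the Tfrc difference was 1.32 on the log2 scale (SE 0.198, adjusted p = 0.000402 from limma, 8.33% of genes called), and Tfrc was the only one of the 10 members called. The diet effects in the 2 genotypes differed by 0.86 (SE 0.395), which did not pass after adjustment (adjusted p = 0.691 from limma, unadjusted p = 0.0431), and 0% of genes passed for this interaction (856 of 11983 had an unadjusted p under 0.05). Genotype by itself left a Tfrc difference of 0.00 (SE 0.198) over both diets, and of all genes 0.0584% were called for it. The highest of 9 correlations of Tfrc with marker sums, as deviations from group means, over 25 mice, was 0.57 with the endothelial markers, with -0.14 for the erythroid and 0.05 for the macrophage markers. With diet over both genotypes, 1 of 5 fibroblast markers was called higher (list median 0.29) and 1 of 6 ventricular cardiomyocyte markers lower (-0.12). None was called in the other 7 marker lists, whose medians ran from -0.94 (atrial) to 0.61 (smooth muscle), and in GPx4+/- mice alone none was called in any. The part of these markers in the diet differences of Tfrc and of the genes of the wider pathway was not tested.

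The carnosine mice had the highest mean and the widest spread of Tfrc. Their values were 26.8, 17.6, 12.5, 7.11 and 37.7, a mean of 20.3 ± 12.1 (SD, n = 5), and 2 of the 5 exceeded every mouse of the other groups. Against WT HFHS the log2 fold change was 0.69 (SE 0.434, adjusted p = 0.947 from limma), and the groups overlapped. It was 0.41 without the carnosine mouse of 37.7, and 0.41 to 0.99 over all alternatives. No gene was called for carnosine (0%; 504 of 11983 had an unadjusted p under 0.05). Against WT CNTL, the carnosine mean was 3.56-fold higher (two-sided exact permutation p = 0.0159, unadjusted, among 60 such tests of members). The lowest carnosine mouse lay below the highest CNTL mouse. These groups differ in both diet and carnosine, and the comparison cannot separate them. Carnosine alone, as WT HFHS + Carnosine against WT HFHS, gave a two-sided exact permutation p = 0.190. In order of mean level, GPx4+/- CNTL and WT CNTL were lowest and overlapped, and the 3 HFHS groups overlapped each other throughout.

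**Figure D1:**
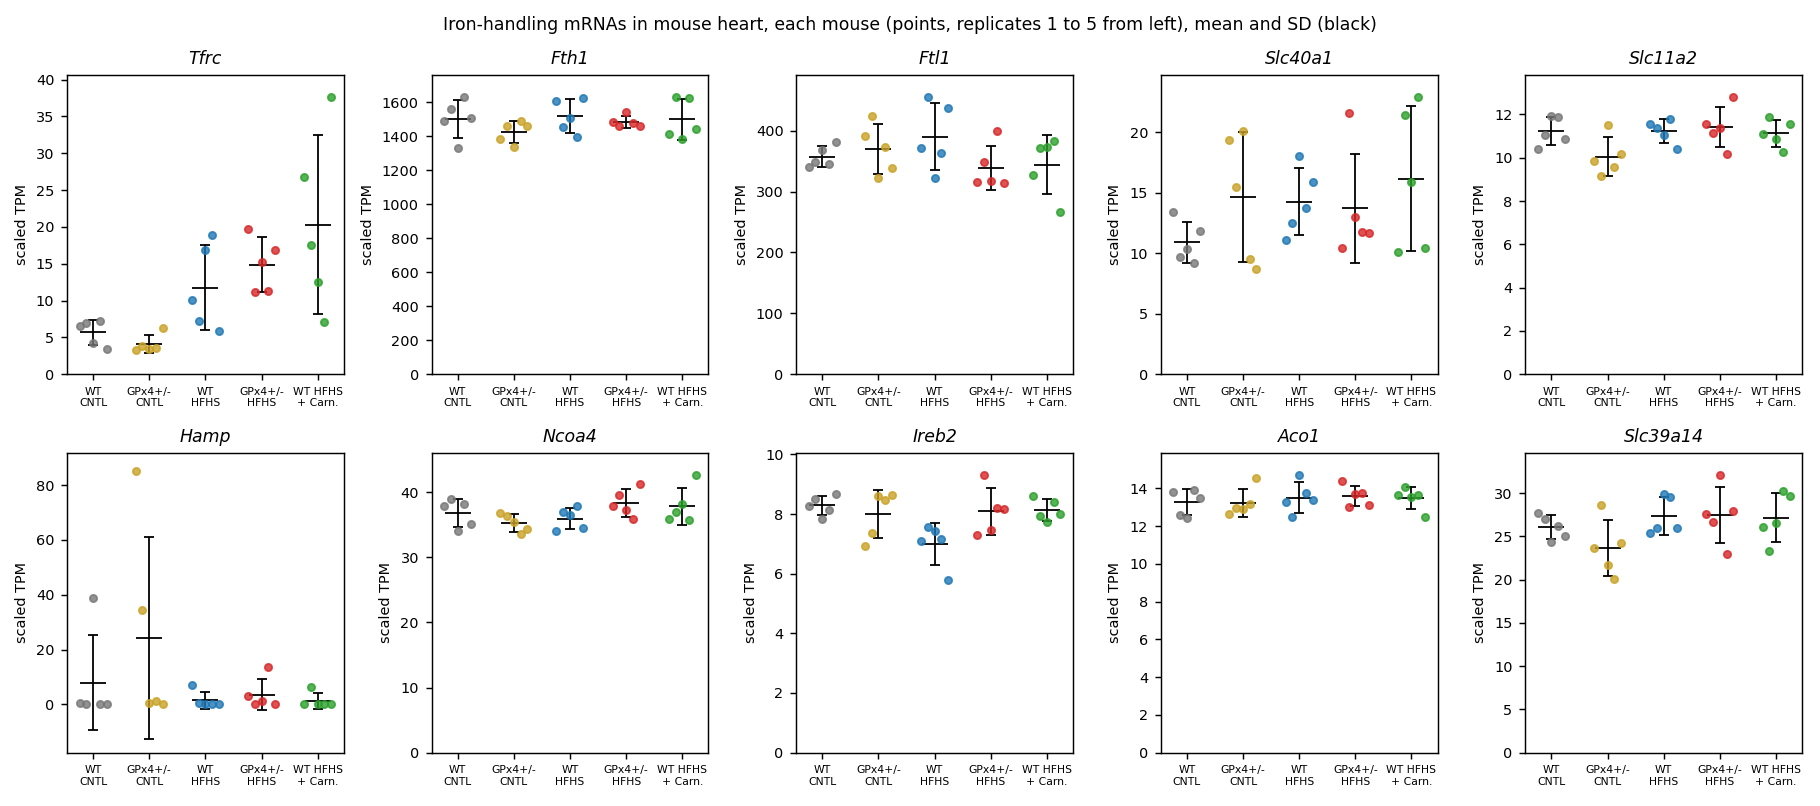
Scaled TPM of the 10 iron genes in each mouse, by group, with linear axes from 0 (the Hamp axis extends lower to hold the SD bar). Points are mice in replicate order, and black bars are the mean and SD of 5 mice. Tfrc sits between 3.27 and 7.21 in both CNTL groups and between 5.81 and 37.7 in the HFHS groups, while Fth1 stays between 1328 and 1632 throughout.

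The transcript with the 4 matches, which made up most of Tfrc in every group, carried most of the difference. ENSMUST00000023486 made up 87.6% of Tfrc TPM on average, and rose from 3.51 ± 1.12 (SD, n = 5) in GPx4+/- CNTL to 12.4 ± 2.41 (SD, n = 5) in GPx4+/- HFHS with no overlap (two-sided exact permutation p = 0.00794, the smallest that 5 mice against 5 allow). Another protein-coding transcript without a match to the element, ENSMUST00000120680, held 7.39%. It went from 0.369 ± 0.168 in GPx4+/- CNTL to 1.41 ± 1.47 in GPx4+/- HFHS (SD, n = 5 each), 3.82-fold against 3.54-fold for the main transcript. Its values overlapped (two-sided exact permutation p = 0.0873). The share of the main transcript within Tfrc had group means between 84.0% and 91.3%, and in single mice ranged from 56.7% to 100%. With diet in GPx4+/- mice this share went from 85.9% to 84.8% (two-sided exact permutation p = 0.873). How reads are split between transcripts of a gene is an estimate, so these shares carry more error than the gene sums.

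Ferritin mRNA was abundant, and no difference with diet or carnosine was detected. Fth1 was the 51st most abundant gene, with means of 1503 ± 112 on CNTL, 1518 ± 99.4 on HFHS and 1498 ± 120.4 with carnosine in WT mice, and of 1426 ± 63.6 on CNTL and 1484 ± 34.6 on HFHS in GPx4+/- mice (SD, n = 5 each). Every group overlapped every other, and the log2 difference with diet was 0.02 (SE 0.055) in WT and 0.06 (SE 0.055) in GPx4+/- mice, neither called by limma (adjusted p = 0.922 and 0.631). Carnosine gave -0.02 (SE 0.070, adjusted p = 0.983 from limma). A library index of transcript length moved with Fth1. This index was the median deviation of genes whose main transcript has at least 4000 bases minus that of genes under 1000 bases, and ranged from -0.14 to 0.08 on the log2 scale. Its correlation with Fth1 (929 bases) within groups was -0.79 over 25 mice, and its part in the Fth1 values was not tested beyond the fit with it as a covariate, where the diet differences were 0.03 and 0.06.

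Ftl1 averaged 357 ± 17.2 on CNTL, 390.2 ± 55.1 on HFHS and 344 ± 48.8 with carnosine in WT mice, and 370.0 ± 40.9 on CNTL and 339 ± 36.3 on HFHS in GPx4+/- mice (SD, n = 5 each). Its diet difference was 0.12 (SE 0.092) in WT and -0.12 (SE 0.092) in GPx4+/- mice, and neither passed (adjusted p = 0.556 and 0.513 from limma). Both ferritin genes have near-identical copies to which reads may be assigned. The annotation held 1 match for Fth1 (Gm6977) and 20 for Ftl1, among them miRNA entries aligned over only 97 to 111 bases. Of the 20, 8 were in the table, none of them a miRNA and the most abundant being Ftl1-ps1. Together the matches in the table took 0.0985% of the Fth1 and 0.71% of the Ftl1 level. Expressed per 1000 of ferritin mRNA (Fth1 plus Ftl1), Tfrc was 2.27 ± 0.687 in GPx4+/- CNTL and 8.18 ± 2.14 in GPx4+/- HFHS (SD, n = 5 each), without overlap (two-sided exact permutation p = 0.00794). The levels of 4.47% of all genes did not overlap either. Ferritin mRNA averaged 1796 and 1823 in these groups, so the ratio repeats the Tfrc difference and is not separate evidence.

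Within groups, mice with more Tfrc had less Ftl1. In the carnosine group, the mouse with the highest Tfrc (37.7) had the lowest Ftl1 (266), and the mouse with the lowest Tfrc (7.11) had the highest Ftl1 (383). In each of the other 4 groups, the mouse of highest Tfrc ranked 2 from the lowest in Ftl1. Deviations from group means correlated with Pearson's r of -0.78 and Spearman's rho of -0.77 over 25 mice, and r was -0.73 without the 2 mice farthest in Tfrc. Of 45 pairs of members this was the lowest r, the next being -0.54 for Ftl1 and Slc11a2, and it was looked at because it was lowest. Among 11552 other protein-coding genes, 15 had a lower r with Tfrc than Ftl1 did. Leaving out each group in turn gave -0.85 to -0.73, and with TPM as deposited r was -0.56. The values are shares of the same libraries, so they are not free of each other. The length index had r of 0.04 with Tfrc and -0.19 with Ftl1, and removing it left r at -0.79. Within groups Ftl1 had r of 0.52 with the atrial and -0.35 with the endothelial markers, and Tfrc -0.26 and 0.57, and the part of these markers in the relation was not tested.

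**Figure D2:**
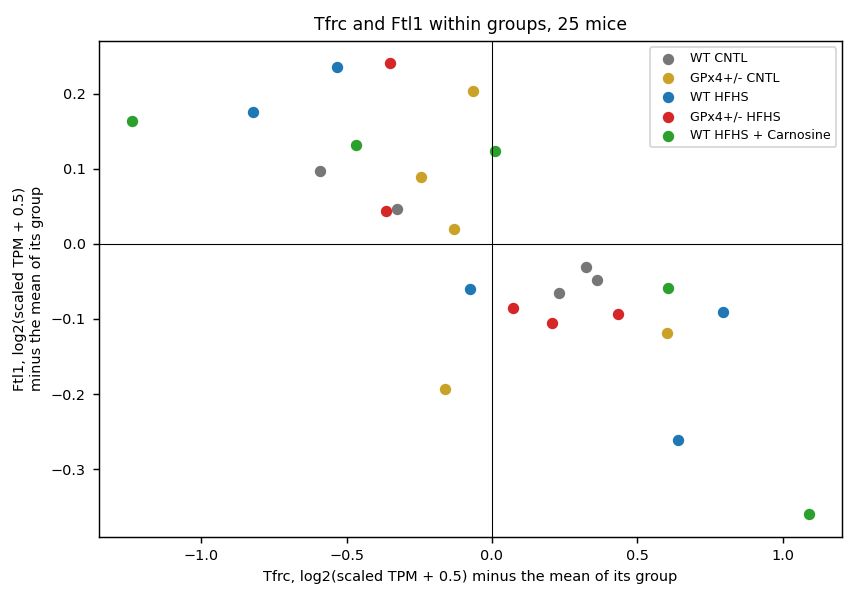
Ftl1 against Tfrc in 25 mice, each as log2(scaled TPM + 0.5) minus the mean of its own group, coloured by group. The points fall from upper left to lower right (r = -0.78), and the carnosine mice reach both ends of the Tfrc axis.

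Of the iron sensors, Ireb2 was lowest in WT HFHS hearts and Aco1 was the same in all groups within its spread. Ireb2 was 8.28, 8.52, 7.84, 8.15 and 8.66 in WT CNTL, 7.08, 7.56, 7.42, 7.18 and 5.79 in WT HFHS, and 8.60, 7.95, 7.74, 8.40 and 7.99 in WT HFHS + Carnosine. Every WT HFHS mouse lay below every mouse of both other WT groups. The 2 comparisons share the WT HFHS mice, so they are not separate evidence. The log2 difference was -0.23 with diet (SE 0.078, adjusted p = 0.146 from limma) and 0.21 with carnosine (SE 0.075, adjusted p = 0.947 from limma, unadjusted p = 0.0178), and neither was called. Two-sided exact permutation gave p = 0.00794 for both, among 60 such tests of members, and values did not overlap in 4.51% of all genes for diet in WT and in 0.609% for carnosine. In GPx4+/- mice Ireb2 averaged 7.99 ± 0.800 on CNTL and 8.09 ± 0.789 on HFHS (SD, n = 5 each). The main transcript ENSMUST00000034843 (89.0% of the gene) had means of 7.27, 6.34 and 7.27 in the 3 WT groups in the same order. Its values overlapped between the diets (two-sided exact permutation p = 0.0238) and not between WT HFHS and carnosine.

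Aco1, whose protein is also the cytosolic aconitase, had group means from 13.2 to 13.6 and single mice from 12.4 to 14.7. The range of its group means, 0.04 on the log2 scale, was smaller than that of all but 0.768% of the genes tested, and its SD within groups (0.071) was smaller than that of all but 3.80%.

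The exporter Slc40a1 varied widely between mice and not detectably between groups. In WT CNTL it was 13.4, 9.68, 10.3, 9.22 and 11.8, and in WT HFHS 11.1, 12.5, 18.1, 13.7 and 15.9, with a log2 difference of 0.37 (SE 0.220, adjusted p = 0.423 from limma). GPx4+/- CNTL mice had 19.4, 15.4, 20.1, 9.55 and 8.72, GPx4+/- HFHS mice 10.5, 21.6, 13.0, 11.8 and 11.7, and carnosine mice 10.1, 21.4, 15.9, 22.9 and 10.5. In GPx4+/- CNTL, 2 mice (9.55 and 8.72) lay below the other 3 (15.4 to 20.1), and all 5 groups overlapped. The SD within groups was 0.416 on the log2 scale, larger than in 95.0% of genes. Within groups Slc40a1 had r of -0.51 with Tfrc. Of the 9 marker sums, r was largest in size for the endothelial (-0.54), which also had the highest r with Tfrc, and was 0.39 for the adipocyte, 0.15 for the macrophage and 0.25 for the erythroid markers. The adipocyte sum (median 623) was nearly all Fabp4 (median 622), since Adipoq, Plin1, Cfd and Lep had medians of at most 0.160. The part of these markers was not tested.

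Among the other transporters and Ncoa4, small differences in GPx4+/- mice did not pass the test. Slc39a14 had means of 23.7 ± 3.24 in GPx4+/- CNTL and 27.5 ± 3.25 in GPx4+/- HFHS (SD, n = 5 each), a log2 difference of 0.21 (SE 0.087, adjusted p = 0.188 from limma), against 26.1 ± 1.38 and 27.4 ± 2.17 in WT mice. Slc11a2 had 10.0 ± 0.895 and 11.4 ± 0.944 in the GPx4+/- groups (SD, n = 5 each), with a difference of 0.18 (SE 0.064, adjusted p = 0.141 from limma), and 11.2 in both WT diet groups. Ncoa4 had 35.3 ± 1.33 and 38.4 ± 2.09 (SD, n = 5 each), a difference of 0.12 (SE 0.049, adjusted p = 0.195 from limma), and -0.03 (SE 0.049) in WT mice. With TPM as deposited the GPx4+/- differences were 0.11 for Slc39a14, 0.07 for Slc11a2 and 0.01 for Ncoa4. Carnosine differences were -0.01 (SE 0.079) for Slc39a14, -0.01 (SE 0.058) for Slc11a2 and 0.07 (SE 0.058) for Ncoa4.

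Slc11a2 was split between 2 protein-coding transcripts, ENSMUST00000023774 with 44.0% and ENSMUST00000138843 with 39.1% of the gene. The share of the latter was 36.6% ± 4.36 in WT CNTL, 39.4% ± 4.59 in WT HFHS and 43.3% ± 3.35 in WT HFHS + Carnosine (SD, n = 5 each). The lowest and the highest of these differed by an exact permutation test (two-sided p = 0.0238) with overlapping values, which was 1 of many transcript comparisons and is given as a value. The main transcript held 70.7% of Ncoa4 and 76.1% of Slc39a14, and Fth1, Ftl1, Slc40a1, Aco1 and Hamp each had a transcript with at least 96.9%.

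**Figure D3:**
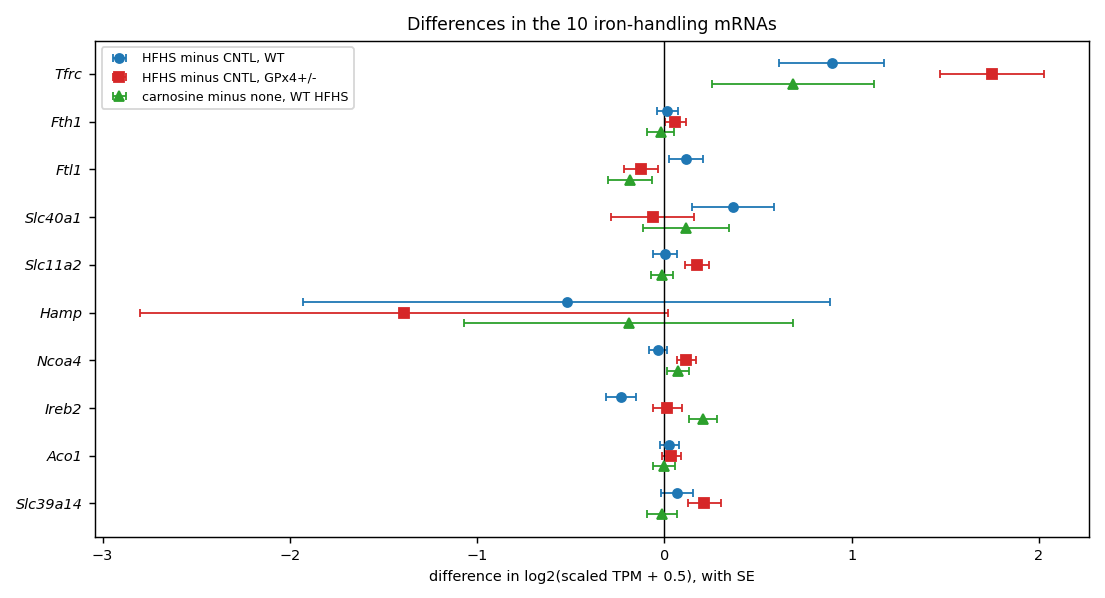
Differences in log2(scaled TPM + 0.5) with their SE for the 10 genes, for diet in WT (circles), diet in GPx4+/- (squares) and carnosine in WT HFHS mice (triangles). Tfrc lies right of 0 in all 3, at 0.89, 1.75 and 0.69, Hamp has the widest bars, and the other genes lie within 0.4 of 0.

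Hamp mRNA was at or near 0 in most hearts and high in a few, which were those with atrial mRNA. It was listed at 0 in 8 of 25 libraries. In WT CNTL the values were 0.502, 0.165, 38.7, 0 and 0, in GPx4+/- CNTL 84.9, 34.5, 0.485, 1.23 and 0.192, and in WT HFHS 6.91, 0.372, 0, 0 and 0.166. GPx4+/- HFHS mice had 3.10, 0.158, 1.22, 13.5 and 0, and carnosine mice 0, 6.39, 0, 0.145 and 0. Group means (1.31 to 24.3) therefore rest on 1 or 2 mice a group, and no comparison passed (diet over both genotypes -0.96, SE 0.995, adjusted p = 0.602 from limma).

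The 6 libraries with the most Hamp (6.39 to 84.9) were the 6 with the highest sum of the 5 atrial markers Bmp10, Myl4, Myl7, Nppa and Sln (276 and above, against at most 257 in the other 19). Myl7, the atrial myosin light chain, was 1498 in GPx4+/- CNTL 1 (Hamp 84.9), 1705 in WT CNTL 3 (38.7), 338 in GPx4+/- CNTL 2 (34.5) and 886 in GPx4+/- HFHS 4 (13.5). Among the other 19 libraries Hamp was at most 3.10, with a median of 0.158. Liver mRNA was raised in 3 libraries. Albumin (Alb) was 736 in GPx4+/- CNTL 2, 40.8 in GPx4+/- HFHS 1 (Hamp 3.10) and 23.0 in GPx4+/- HFHS 3 (Hamp 1.22), and the first of these is also among the atrial 6. Alb was at most 5.25 in all other libraries. Hamp2, the paralog with a similar sequence, averaged 0.356 and took 4.62% of the Hamp level. That share is of means over 25 libraries, and the Hamp mean rests on the few high ones. Elsewhere Hamp2 was above Hamp in some libraries (0.477 against 0.165 in WT CNTL 2) and below in others (0.396 against 1.23 in GPx4+/- CNTL 4). The part of the dissection or of liver mRNA in the Hamp values was not tested.

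**Figure D4:**
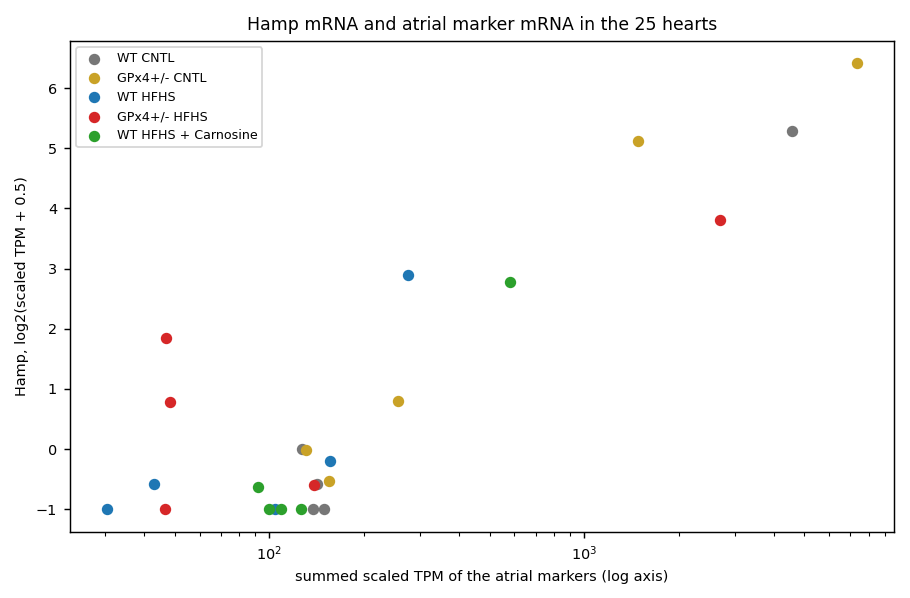
Hamp as log2(scaled TPM + 0.5) against the summed scaled TPM of 5 atrial markers (log axis) in 25 hearts, coloured by group, where points at -1 are libraries with Hamp at 0. The 6 libraries furthest right have the highest Hamp (6.39 to 84.9 scaled TPM), and GPx4+/- HFHS 1 and 3, with raised liver mRNA, stand above the left-hand points.

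The genes whose level over 25 libraries ran closest to a member were named by correlation of log2 values, as a description. For Tfrc these were Clasp1 (r = 0.91), which encodes a microtubule-binding protein, Msrb3 (0.91), a methionine sulfoxide reductase, and Srl (0.89), which encodes sarcalumenin of the sarcoplasmic reticulum. Within groups these were 0.70, 0.77 and 0.69, and for the genes named for Fth1, Slc40a1 and Hamp r within groups was 0.79 or above. Fth1 ran with Mrpl14 (0.86), Uqcrq (0.83) and Cox4i1 (0.82), short mRNAs of the mitochondrial ribosome and respiratory chain. Slc40a1 ran with Art4 (0.84), Ppip5k2 (0.79) and Ifi205 (0.79). Hamp ran with Mybphl (0.93), Sln (0.93) and Fgf12 (0.92), of which Mybphl and Sln are expressed in atrial muscle.

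Members differed widely among themselves in spread. The SD within groups on the log2 scale was 0.59 for Tfrc, larger than in 97.5% of genes tested, and 2.31 for Hamp, against a median of 0.145 over all genes. Group means of Tfrc spanned 2.01, a wider range than in 99.8% of genes, against 0.09 for Fth1, 0.20 for Ftl1, 0.12 for Ncoa4 and a median of 0.182 over all genes.

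In the wider iron pathway, 4 of 64 tested genes in 6 lists passed with diet over both genotypes (6.25%, against 8.33% of all genes), 1 higher and 3 lower. In the transferrin cycle and iron uptake list, 10 of 14 genes were tested, and 1 rose and none fell. That was Steap3, an endosomal ferrireductase of the transferrin cycle, with 17.9 ± 1.39 in WT CNTL and 21.4 ± 1.79 in WT HFHS, and 18.0 ± 1.83 and 20.7 ± 1.72 in the GPx4+/- groups (SD, n = 5 each). The log2 difference was 0.22 over both genotypes (SE 0.054, adjusted p = 0.0147 from limma), and neither genotype passed alone. It was 0.17 to 0.24 under the alternatives and lost the call with TPM as deposited and without the libraries with liver mRNA. The list's median was 0.05, against 0.00 over all genes. Transferrin itself (Trf, -0.04, SE 0.291) and Hfe (0.17, SE 0.075), a partner of the receptor, were not called.

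Cp, which encodes ceruloplasmin, a ferroxidase that works with ferroportin, fell with diet over both genotypes (-0.35, SE 0.082, adjusted p = 0.0119 from limma). It was 38.9 ± 3.97 in WT CNTL and 29.2 ± 2.25 in WT HFHS, and 33.8 ± 4.63 and 27.6 ± 5.49 in the GPx4+/- groups (SD, n = 5 each), and neither genotype passed alone (adjusted p = 0.0894 and 0.174 from limma). In WT mice the groups did not overlap (nor did they in 4.51% of all genes), the lowest CNTL mouse having 35.0 and the highest HFHS mouse 32.3, and in GPx4+/- mice they did. The call over both genotypes was lost without the 3 libraries with liver mRNA, and also without 4 libraries with atrial mRNA (adjusted p up to 0.0613 from limma). It held in 29 of 31 alternatives, and the difference was -0.40 to -0.26 over all of them. Cp was the only tested gene of its list of 3.

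Of the 18 genes of haem synthesis, transport and breakdown, 1 was called. Flvcr2, a membrane transporter first described for haem, fell with diet over both genotypes (-0.46, SE 0.083, adjusted p = 0.00187 from limma). In GPx4+/- mice it fell from 2.28 ± 0.201 to 1.46 ± 0.155 (SD, n = 5 each; adjusted p = 0.0239 from limma), a call lost under 7 of 30 alternatives. In WT mice it was 2.21 ± 0.600 and 1.48 ± 0.158 (SD, n = 5 each), with overlapping values, and did not pass (adjusted p = 0.0809 from limma). The median of the list was -0.05, with Alas1 (0.24, SE 0.132) and Hmox1 (-0.29, SE 0.197) not called. Among 11 cytosolic iron sensors and chaperones 1 fell, which was Cisd2, an iron-sulphur protein of the endoplasmic reticulum and mitochondrial outer membrane. It went from 19.6 ± 0.815 to 16.7 ± 0.605 in WT mice (SD, n = 5 each; -0.22, adjusted p = 0.0381 from limma) and was -0.18 (SE 0.036, adjusted p = 0.00493 from limma) over both genotypes. The call in WT mice, where 1.19% of genes were called, held under 18 of 31 alternatives, with a difference of -0.24 to -0.20 over all of them.

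None of 15 tested genes of mitochondrial iron and iron-sulphur clusters passed (median 0.03), nor any of 10 tested genes of hepcidin control (median 0.08). For carnosine no gene of these lists passed, and the list medians lay between -0.10 and 0.05.

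**Figure D5:**
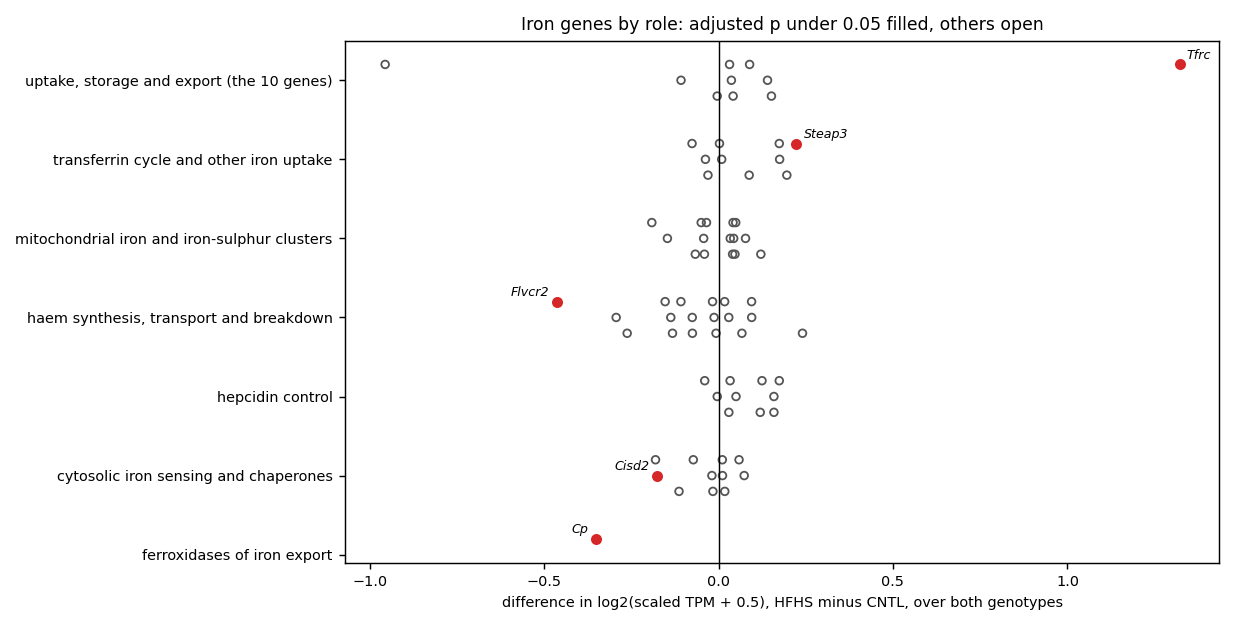
Differences in log2(scaled TPM + 0.5), HFHS minus CNTL over both genotypes, for the tested genes of the iron lists described. Filled points have an adjusted p under 0.05 from limma and are named, and open points have not. Tfrc at 1.32 stands far to the right, Steap3 is at 0.22, and Cisd2, Cp and Flvcr2 lie left of 0.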

How the data were processed

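Transcript abundance in left ventricular mRNA of 25 mice was taken from the table of TPM that the authors deposited for 119215 transcripts. The submitters' processing notes name kallisto 0.43.1, sleuth 0.30.0 and GRCm38, with no role or order. Columns were assigned by the library name in the header, since the stated column positions disagree with it, and groups by the sample labels. By identifier without version, 116772 of them had a gene in GENCODE M21 and 2443 had none.

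TPM were summed per gene and scaled by median ratios over 11879 genes. Genes averaging 1 scaled TPM or more were tested as log2(scaled TPM + 0.5) with limma 3.58.1 in R 4.3.3 (empirical Bayes with trend, threshold of 0.05 after Benjamini-Hochberg adjustment). The 20 mice without carnosine were fitted together, and the 10 WT HFHS mice with and without carnosine apart. The paper's tests on counts could not be repeated on TPM. Single values were compared by two-sided exact permutation. P-values measure the spread between these samples. Counting error cannot be had from TPM. Near-identical copies were found with blastn 2.17.0 (identity of at least 90%).

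The 10 genes, the iron lists and the markers were chosen with earlier results of these data known. Named were all members, called genes of the lists (up to 5 for each list and comparison, by p), the 3 genes most correlated with Tfrc, Fth1, Slc40a1 and Hamp, Gpx4, member transcripts with at least 5% of their gene, near-identical copies with a mean of at least 1, and markers of libraries that stood apart. Trf, Hfe, Alas1, Hmox1 and Hamp2 were named besides. A list of other mRNAs with the element is not reported here. As alternatives the pseudocount was set to 0.1, the filter dropped or raised to 5, and the scaling dropped or replaced by quantile normalization. Further ones were all 25 mice in one fit, the replicate number as a block, protein-coding transcripts only, ferritin summed with its copies, and libraries left out singly or for liver or atrial mRNA. For atrial mRNA, 4 of the 6 highest libraries were left out (GPx4+/- CNTL 1, WT CNTL 3, GPx4+/- HFHS 4 and WT HFHS + Carnosine 2). GPx4+/- CNTL 2 and WT HFHS 1 stayed in, so that fit still held some atrial mRNA. The length index as a covariate was added after seeing the data.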

Additional observations from a re-analysis of the deposited data

Results flagged for a closer look

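In 9 of 50 groups of 5 mice (10 genes in 5 groups), 1 mouse stood apart by Dixon's ratio, the gap to its nearest neighbour over the range of the group, where chance would give about 2.5. Of these, 4 were Hamp, in WT CNTL 3 (ratio 0.987, scaled TPM 38.7), GPx4+/- HFHS 4 (0.769, 13.5), WT HFHS 1 (0.946, 6.91) and, with carnosine, WT HFHS + Carnosine 2 (0.977, 6.39), all among the 6 libraries with the highest atrial sum. Tfrc stood apart in GPx4+/- CNTL 5 (0.833), with 6.28 against at most 3.77 in the rest of its group. The diet difference in GPx4+/- mice was called whichever mouse was left out. Slc40a1 stood apart in GPx4+/- HFHS 2 (0.773, with 21.6 against at most 13.0) and Fth1 in GPx4+/- HFHS 3 (0.728, with 1543 against at most 1481). Ireb2 was low in WT HFHS 5 (0.729, with 5.79 against at least 7.08), and Aco1 was high in GPx4+/- CNTL 5 (0.736, with 14.5 against at most 13.2).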

How the results depend on the processing

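Under the alternatives that apply to each comparison, Tfrc was called with diet in GPx4+/- mice in 31 of 31 (log2 fold change 1.56 to 1.90, adjusted p at most 0.0411 from limma) and over both genotypes in 31 of 31 (1.22 to 1.42), and with diet in WT mice in 0 of 31 (0.70 to 1.10, adjusted p 0.0624 to 0.256). No other member was called under any. All 1762 values of single members under alternatives stayed on the same side of the threshold; 103 of them, none called in either fit, had the opposite sign, the largest reported size among these being 0.87, for Hamp in the interaction. TPM as deposited moved the median of all genes by -0.10 with diet in GPx4+/- mice and -0.11 in the interaction. The share of called genes that were higher was then 8.73% against 65.2% with diet in GPx4+/- mice and 19.9% against 56.2% over both genotypes, while Tfrc stayed higher.

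Counts over all genes moved more. With diet in WT mice, 142 genes were called, but 43 without a filter and 38 with TPM as deposited. There were 94 without the 3 libraries with liver mRNA and 224 without 4 of the 6 highest in atrial mRNA. Leaving out each mouse gave 36 to 202, lowest without WT CNTL 2. With diet in GPx4+/- mice, 400 became 235 without a filter, 168 without the liver libraries, 226 without the same 4 atrial ones and 191 to 484 without single mice. For genotype, 7 became 4 with a minimum of 5 and with protein-coding transcripts only. In the interaction 0 to 1 were called without single mice. The causes were not tested. With the replicate number as a block, 68 genes were called with diet in WT mice and the calls of members were as reported. The numbers were not taken as pairing, because the 50 pairs of same-numbered mice had correlations from -0.34 to 0.23 (median -0.00) and 4 of 25 libraries correlated best with their own number.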
